A study of Mus musculus with 12 samples.

Results

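The levels of 5 genes, Fam129c, Akap12, Chst3, Lynx1 and Klhl14, were followed through lineage-negative bone marrow cells of C57BL/6 mice, the marrow fraction depleted of cells that carry mature blood cell antigens. They are 5 of the 31060 genes in the deposited count table, found by their GRCm38 gene symbols, and they were selected on their low counts in the mice labelled Tet2+/-;Ins2Akita/+. Their levels in that group are therefore given as a description, with no test. The 5 genes were tested only in the comparisons that leave that group out.

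RNA was sequenced from 4 genotypes: wild type (WT, n = 3), Tet2+/- (1 disrupted copy of Tet2, an enzyme that oxidises methylated cytosine, n = 3), Ins2Akita/+ (the Akita mutation in 1 copy of the insulin gene Ins2, which misfolds insulin and causes hyperglycemia, called Akita here, n = 2) and Tet2+/-;Ins2Akita/+ (called the double mutant here, n = 3). All 4 share the C57BL/6 background and the lineage-negative gate. The labels name neither the construction of the Tet2 allele nor the age of the mice, and they do not say that the samples of a group are separate animals, so p-values measure only the spread between these samples. Libraries are named by genotype and by the number in their label, from 1 to 3.

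The 11 libraries held between 14814409 and 22600405 counts. Mitochondrial genes took 1.36% to 1.94% of the counts in 8 libraries and 3.43%, 4.46% and 9.76% in the libraries numbered 3 of WT, Tet2+/- and the double mutant, so values are also given without those 3 libraries. Tet2 itself lay at 45.1 to 128 CPM (counts scaled to a common library size) in WT, at 18.5 to 19.3 in Tet2+/- and at 34.2 to 108 in the double mutant. In the libraries labelled Tet2+/-;Ins2Akita/+ the Tet2 level thus overlapped WT and lay above every Tet2+/- library, and every direction below is between libraries that carry these labels. All 9 stem and progenitor markers were detected in every group, Kit at 121 ± 8.80 CPM in WT (SD, n = 3).

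In GRCm38 the genes lie on 4 chromosomes, and all are annotated as protein coding. Fam129c (ENSMUSG00000043243.15) is at chr8:71597648-71607936 on the plus strand, with 3560 exonic bases. Akap12 (ENSMUSG00000038587.8) is at chr10:4266380-4359470 on the plus strand, with 6461 exonic bases. Chst3 (ENSMUSG00000057337.13) is at chr10:60181532-60219260 on the minus strand, with 6497 exonic bases. Lynx1 (ENSMUSG00000022594.14) is at chr15:74747852-74753046 on the minus strand, with 4662 exonic bases. Klhl14 (ENSMUSG00000042514.11) is at chr18:21550377-21654718 on the minus strand, with 4425 exonic bases. Akap12 and Chst3 share a chromosome but are far apart on it.

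The proteins have unlike jobs. Fam129c (also called Niban3) is a member of the small Niban family and is expressed mainly in B cells. Akap12 is a scaffold that holds protein kinase A and other signalling enzymes at the membrane. Chst3 is a Golgi enzyme that adds sulfate to the 6 position of N-acetylgalactosamine in chondroitin. Lynx1 is a small membrane-anchored protein of the Ly6 family that tunes nicotinic acetylcholine receptors in the brain. Klhl14 belongs to the Kelch-like proteins, many of which bring substrates to the ubiquitin ligase scaffold Cul3, and is known from B cells. B cell development in the marrow is run by transcription factors such as Ebf1 and Pax5, and lineage-negative marrow can still hold early B lineage and dendritic cell precursors.

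RefSeq promoters are given for 2 of the 5 genes only, Fam129c (as Niban3) and Chst3. How many of the 5 have a RefSeq promoter is not reported here. The promoters of Fam129c and Chst3 are shown so that the DNA before both starts can be read side by side. All 5 genes were low in the same libraries, so low levels do not set these 2 apart. Each line holds the 250 bases before the RefSeq start, from GRCm38.p6, 5′ to 3′ on the strand of the gene, at chr8:71597458-71597707 for Fam129c and chr10:60219261-60219510 for Chst3. Capitals mark matches to the 6 motifs searched on both strands.
Fam129c: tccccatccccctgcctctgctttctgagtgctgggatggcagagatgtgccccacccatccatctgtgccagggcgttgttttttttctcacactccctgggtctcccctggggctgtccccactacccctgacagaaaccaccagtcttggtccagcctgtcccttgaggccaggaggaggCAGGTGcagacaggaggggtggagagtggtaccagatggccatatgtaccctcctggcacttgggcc
Chst3: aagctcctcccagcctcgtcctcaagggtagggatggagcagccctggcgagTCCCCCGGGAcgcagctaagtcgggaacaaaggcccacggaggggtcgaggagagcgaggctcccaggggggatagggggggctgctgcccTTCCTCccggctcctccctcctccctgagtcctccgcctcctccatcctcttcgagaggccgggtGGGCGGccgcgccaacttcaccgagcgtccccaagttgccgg
The motifs were an EBF site (TCCC, any 2 bases, GGGA), an Ets site (GAGGAA), an E-box (CAGGTG), a Runx site (TGTGGT), the octamer (ATTTGCAT) and the GC box (GGGCGG). In Fam129c the capitals are an E-box, a match held by 17.2% of all 32851 promoters of this length. In Chst3 they are, in order, an EBF site, held by 0.779% of promoters, an Ets site read on the other strand, held by 23.3%, and a GC box, held by 32.7%. Runx and octamer letters were in neither window. GC content was 60.8% for Fam129c and 69.6% for Chst3, against a median of 52.4% over all promoters. A match is a description of letters and not a measured binding site.

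In WT, Fam129c was at 26.2, 22.7 and 31.1 CPM, in Tet2+/- at 24.7, 48.2 and 34.1, in Akita at 20.01 and 24.8, and in the double mutant at 5.11, 4.57 and 4.25. The 3 double mutant libraries were close together and all lay below the lowest other library, by 3.91-fold. The mean of Fam129c was 26.7 ± 4.21 CPM in WT (SD, n = 3) and 4.64 ± 0.437 in the double mutant libraries (SD, n = 3), which is 17.4% of WT. Outside the double mutant the highest library was Tet2+/- library 2 and the lowest Akita library 1. In bulk RNA, fewer cells that express a gene and less of its RNA per cell cannot be told apart.

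Akap12, the kinase scaffold, was at 14.5, 16.3 and 12.1 CPM in WT, 19.1, 22.3 and 13.7 in Tet2+/-, 15.2 and 20.8 in Akita, and 2.26, 1.54 and 0.824 in the double mutant. The groups other than the double mutant overlapped each other, and its highest library lay 5.36-fold under the lowest of the other 8. Its mean was 14.3 ± 2.12 CPM in WT (SD, n = 3) and 1.54 ± 0.716 in the double mutant (SD, n = 3), or 10.8% of WT.

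Chst3, the sulfotransferase, was at 18.0, 14.1 and 12.3 CPM in WT, 17.0, 15.3 and 14.7 in Tet2+/-, 13.6 and 18.2 in Akita, and 1.90, 0.547 and 1.46 in the double mutant. The other 3 genotypes overlapped, and the lowest of their 8 libraries lay 6.48-fold above the highest double mutant library. The mean of Chst3 was 14.8 ± 2.89 CPM in WT (SD, n = 3) and 1.30 ± 0.692 in the double mutant (SD, n = 3), or 8.80% of WT.

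Lynx1, the Ly6 protein, was at 4.18, 4.33 and 4.54 CPM in WT, 3.84, 5.22 and 4.25 in Tet2+/-, 3.45 and 4.80 in Akita, and 1.05, 0.945 and 0.571 in the double mutant. All 8 libraries of the other genotypes lay within a narrow band, and the double mutant lay 3.27-fold under it. The mean was 4.35 ± 0.179 CPM in WT (SD, n = 3) and 0.856 ± 0.253 in the double mutant (SD, n = 3), or 19.7% of WT.

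Klhl14 was the least abundant, with 1.91, 1.39 and 1.57 CPM in WT, 2.32, 2.61 and 1.06 in Tet2+/-, 1.15 and 1.78 in Akita, and 0.100, 0.050 and 0 in the double mutant. Behind these levels stand 19 to 49 counts per library outside the double mutant, and 2, 1 and 0 counts in its 3 libraries. A count of 0 allows up to 3 counts at this depth. From the summed counts, 92 in WT against 3 in the double mutant, the WT level was 30.3 times the double mutant level, with an exact 95% interval of 10.1 to 150 that covers counting error only. The same ratio was 36.5 (12.2 to 180) for Tet2+/- and 27.9 (9.07 to 139) for Akita.

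**Figure D1:**
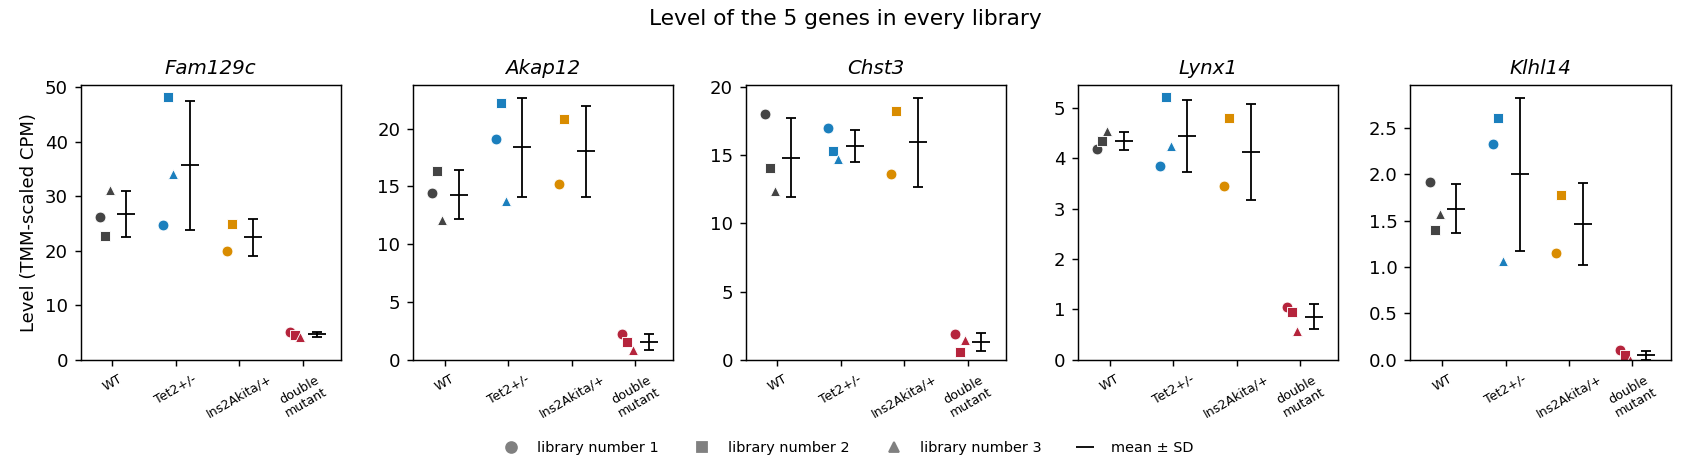
Level of each of the 5 genes in CPM (linear axes that start at 0), 1 point per library in the 4 genotypes with a symbol for the library number, and the group mean ± SD in black. The double mutant points lie under all other points in every panel, and the other 3 genotypes overlap.

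Per kilobase of exon, which allows genes to be set against each other, the order in WT was Fam129c at 7.49, Chst3 at 2.28, Akap12 at 2.21, Lynx1 at 0.933 and Klhl14 at 0.368 CPM per kilobase. Chst3 and Akap12 did not differ beyond their spread. In the double mutant the same scale gave 1.30 for Fam129c, 0.238 for Akap12, 0.201 for Chst3, 0.184 for Lynx1 and 0.0113 for Klhl14, so that Akap12, Chst3 and Lynx1 lay near each other there.

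By group mean, Fam129c, Lynx1 and Klhl14 were highest in Tet2+/-, then WT, then Akita, then the double mutant. For Akap12 the order was Tet2+/-, Akita, WT and double mutant, and for Chst3 it was Akita, Tet2+/-, WT and double mutant. Every pair of neighbours in these orders overlapped between libraries except the step down to the double mutant. Over the whole table, 3.49% of the 15630 genes tested had all 3 double mutant libraries below all 8 others, and the 5 genes were chosen for that side, so that 5 of 5 do so here is fixed by the choice. Tet2+/- library 2 was the highest of all 11 libraries for 4 of the 5 genes; for Chst3 the highest was Akita library 2.

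The fitted log2 differences give the low levels of the double mutant on a single scale. Against WT they were -2.52 for Fam129c, -3.20 for Akap12, -3.50 for Chst3, -2.33 for Lynx1 and -4.78 for Klhl14. Against Tet2+/- the values were -2.94, -3.56, -3.59, -2.36 and -5.07 in the same order, and against Akita -2.27, -3.54, -3.61, -2.25 and -4.63. These 3 comparisons share the double mutant libraries, and the Klhl14 values rest on 3 counts and depend on the model's prior count. The choice of the 5 genes had no numeric threshold, and other genes lay as low against WT. Among these were Spib (42.6 to 7.38 CPM, log2 -2.53), an Ets factor active in B cells and plasmacytoid dendritic cells, Igll1 (3.29 to 0.481 CPM, -2.76), a part of the pre-B cell receptor, and the B cell kinase Blk (10.005 to 1.66 CPM, -2.59).

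**Figure D2:**
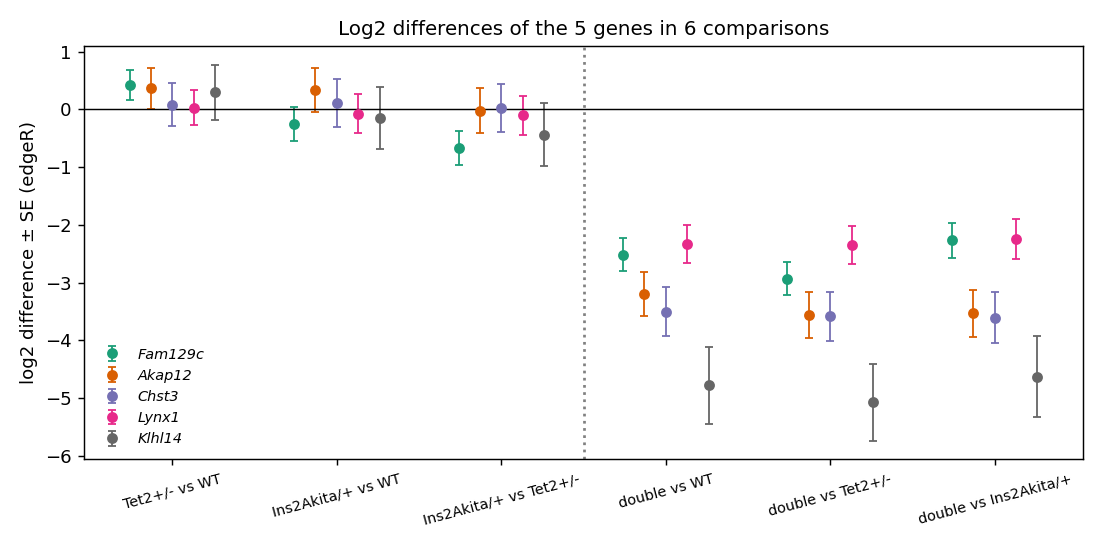
Fitted log2 difference of the 5 genes (colours) in each of 6 comparisons, with bars of 1 SE. Left of the dotted line, without the double mutant, the values lie from -0.67 to 0.42; the values with the double mutant, which chose the genes, lie from -2.25 to -5.07.

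The study's design also asks what each mutation does alone. None of the 5 was called, which means an adjusted p under 0.05, in any of the 3 comparisons among WT, Tet2+/- and Akita (edgeR quasi-likelihood test, Benjamini-Hochberg over 15630 genes). For Tet2+/- against WT 0 of 5 were called, where 0.0256% of all genes were, 4 in number. For Akita against WT 0 of 5 were called beside 0.0% of all genes, 67 of which had an unadjusted p under 0.05. For Akita against Tet2+/-, which shares no library with the double mutant and WT comparison, 0 of 5 were called beside 0.0192% of all genes, 3 in number. No member had an unadjusted p under 0.05 in these 3 comparisons in the edgeR fit of all 11 libraries. DESeq2, edgeR with the replicate number as a block and edgeR without the libraries numbered 3 called 0 of 5 in each as well. Each of these gave 1 member an unadjusted p under 0.05, Fam129c in Akita against Tet2+/-, with an unadjusted p of 0.0319, 0.0479 and 0.0404.

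Fam129c had the largest differences of the 5 in both comparisons with Tet2+/-, and Akap12 had the largest in Akita against WT. In Tet2+/- Fam129c was higher than in WT by a log2 difference of 0.42 (SE 0.26, 95% interval -0.17 to 1.01, edgeR adjusted p = 0.99994), with libraries 2 and 3 above the WT range and library 1 inside it. In Akita Fam129c was at 22.4 ± 3.40 CPM (SD, n = 2) against 35.7 ± 11.8 in Tet2+/- (SD, n = 3), a log2 difference of -0.67 (SE 0.30, interval -1.34 to 0.00, edgeR adjusted p = 0.886). The Akita libraries and Tet2+/- library 1 overlapped. Without Tet2+/- library 2 the difference of Fam129c was 0.14 in Tet2+/- against WT and -0.39 in Akita against Tet2+/-.

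For the other genes the single mutant differences were small beside their error. Akap12 in Tet2+/- against WT gave 0.36 (SE 0.35, interval -0.41 to 1.14) and Klhl14 0.29 (SE 0.48). Chst3 and Lynx1 gave 0.08 (SE 0.37) and 0.03 (SE 0.30), close to 0. In Akita against WT the log2 differences were 0.34 for Akap12, 0.11 for Chst3, -0.08 for Lynx1, -0.15 for Klhl14 and -0.25 for Fam129c. In Akita against Tet2+/-, Klhl14 gave -0.44 (SE 0.54, interval -1.65 to 0.77) and Akap12, Chst3 and Lynx1 gave -0.03, 0.02 and -0.10. For Chst3 and Lynx1 the intervals in Tet2+/- against WT ran from -0.75 to 0.92 and from -0.65 to 0.70, so differences inside these bounds were not detectable with these libraries.

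The 3 groups with a library numbered 3 allow the double mutant to be set against WT within each number, although the labels do not say that equal numbers are pairs. Fam129c in the double mutant was 19.5%, 20.1% and 13.7% of the WT library of number 1, 2 and 3. Akap12 was at 15.6%, 9.44% and 6.81%, Chst3 at 10.6%, 3.88% and 11.8%, Lynx1 at 25.2%, 21.8% and 12.6%, and Klhl14 at 5.24%, 3.57% and 0%. All 5 genes were below WT within every number. That outcome was fixed, because the genes were chosen for low levels there and every double mutant library lay below every WT library. It therefore says nothing about the mitochondrial share, which was high in number 3 of both groups. The library numbered 3 of the double mutant held the lowest level of Fam129c, Akap12, Lynx1 and Klhl14 and, for Chst3, the middle one.

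Outside the double mutant the genes differed in how steady they were. The coefficient of variation over the 8 libraries of WT, Tet2+/- and Akita was 12.7% for Lynx1, 13.9% for Chst3, 21.5% for Akap12, 30.9% for Fam129c and 31.6% for Klhl14. Counting alone would give 11.02% for Lynx1 and 17.4% for Klhl14, against 4.28% to 5.81% for the other 3. Lynx1 thus varied little beyond its counting error. Among genes of a mean level within 1.5-fold of its own, 1.91% varied less than Lynx1 and 11.7% less than Chst3, and for Akap12, Klhl14 and Fam129c the shares were 32.6%, 31.3% and 60.8%. The 8 libraries include the WT libraries, against which the double mutant was low in the choice. Genes that stand out in such a comparison tend to vary little within groups. These shares may thus follow in part from the choice, which was not tested.

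Across all 11 libraries the log2 levels of the 5 genes correlated with each other at Pearson r of 0.936 to 0.986, values that include the step between the double mutant and the rest. Over the 8 libraries without the double mutant r lay between -0.07, for Fam129c and Chst3, and 0.74, for Fam129c and Lynx1. Akap12 and Klhl14 had an r of 0.66 there, Akap12 and Chst3 0.57, and Chst3 and Klhl14 0.50. The libraries share their depth and their groups, so these are descriptions of 8 points.

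**Figure D3:**
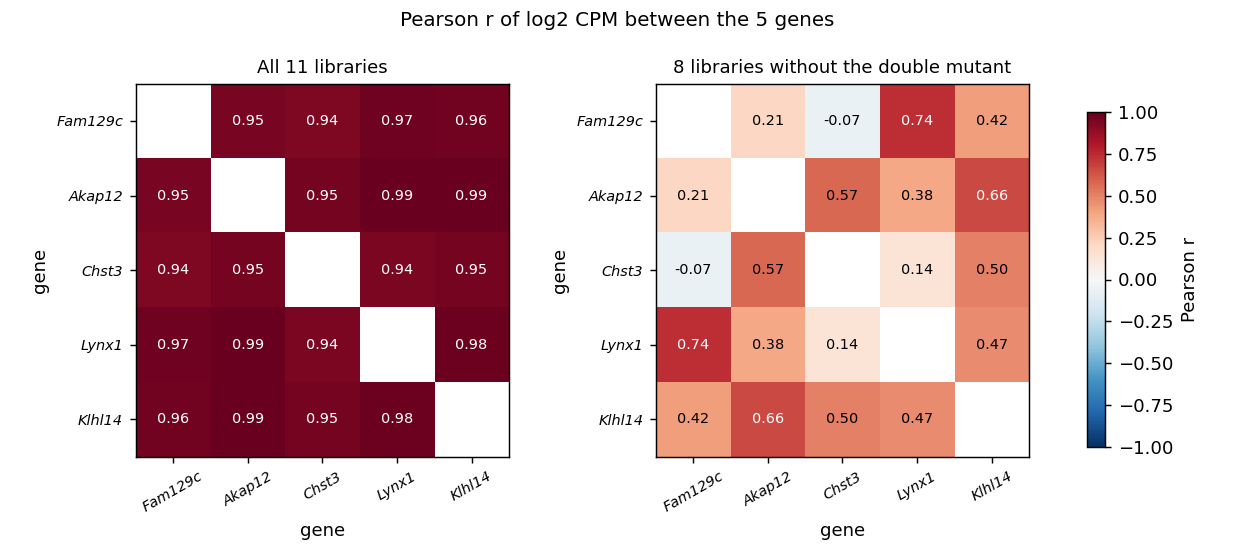
Pearson r of log2 CPM between each pair of the 5 genes, over all 11 libraries and over the 8 libraries without the double mutant. Values lie at 0.936 or higher in the first and spread from -0.07 to 0.74 in the second.

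The genes most like each member over all 11 libraries, among 11948 genes with a mean of at least 1 CPM, included Fcrla, Blk, Pax5 and Bach2 of the B lineage list. For Fam129c they were the Fc receptor-like gene Fcrla (r = 0.982), Blk (0.977), Lynx1 and Slamf6 (0.968), a lymphocyte surface receptor. For Chst3 they included the B cell transcription factor Pax5 (0.989), Ikzf3 (0.983), a zinc finger factor of lymphocytes, and Zfp318 (0.974). For Akap12 they were Klhl14 and Lynx1 (both 0.986), Spib (0.983) and Bach2 (0.979), a B cell repressor. For Klhl14 they were Spib (0.988), Akap12, Lynx1 and the pyrimidine catabolism enzyme Upb1 (0.979), and for Lynx1 they were Akap12, Klhl14, Spib (0.977) and Fam129c. The 20 places held 14 different genes. When the libraries numbered 3 were left out, 2 of the 20 kept their place among the 4 most alike, while r of the same 20 pairs stayed at 0.958 to 0.992. All these r include the step down to the double mutant, on which the 5 genes were chosen.

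Without the double mutant the most alike genes were others, with 20 different genes in 20 places. Fam129c went with Snx5 (r = 0.990), the translation factor gene Eif3f (0.979), Tomm20 (0.978) and the ribosomal protein gene Rpl13 (0.977). Akap12 went with Bex1 (0.918), Cdv3, Snx9 and Plag1, and Lynx1 with Msantd2 (0.946), Tmem158, Dbndd2 and Snn. Chst3 went with Lrig1 (0.968), an inhibitor of growth factor receptors, Tmem198, the T cell receptor segment Trbv13-2 and the T cell gene Themis (0.915). Klhl14 went with Ccl6 (0.965), the plasmacytoid dendritic cell receptor Siglech (0.927), Sdc2 and Atp2a1. Without the libraries numbered 3, 0 of these 20 kept a place among the 4 most alike, while r of the same 20 pairs was 0.830 to 0.994 over the 6 libraries left. Among the 20, Lrig1 went from 12.6 CPM in WT to 2.81 in the double mutant (log2 -2.16), and Siglech from 63.7 to 17.7 CPM.

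The B lineage list, 24 genes of which 23 were tested, was low in the double mutant as well. In the double mutant against WT 21 of 23 lay below 0 with a median log2 difference of -2.07, beside -0.05 for all genes, and 0 of 23 were called (edgeR), beside 0.0192% of all genes called lower. An unadjusted p under 0.05 was reached by 17 of the 23, all lower, beside 3.67% of all genes, and DESeq2 called 15 of them lower, beside 0.902% of all genes. Against Tet2+/- the median was -2.48 and 8 were called lower, beside 0.179% of all genes, among them Pax5, Ebf1, Vpreb1, Igll1, Blk, Bach2 and Fcrla. Pax5 went from 33.1 ± 8.54 CPM in Tet2+/- (SD, n = 3) to 2.03 ± 1.36 in the double mutant libraries (SD, n = 3), a log2 difference of -4.03 (SE 0.57, edgeR adjusted p = 0.0367). These calls depended on which libraries were in the fit. Without any 1 of WT 1 or 2, Tet2+/- 1 or 2 and double mutant 1 or 3, 0 of the 23 were called against Tet2+/-. Over the whole table those fits called only 0, 0, 1, 1, 8 and 6 genes, in the same order. Without double mutant library 2, WT library 3 or Tet2+/- library 3 the list counts were 2, 8 and 11. Those fits called 3, 49 and 66 genes over the whole table. The median of the list lay between -2.72 and -2.18 in every fit with 1 library left out. With 1 library left out, Pax5 lay between -4.49 and -3.56, with an edgeR adjusted p of 0.0227 to 0.131, and was called in 3 of 11 such fits. Cd79a, a part of the B cell receptor, went from 42.6 ± 7.90 CPM in WT to 32.2 ± 3.89 (log2 -0.40, SE 0.24, edgeR adjusted p = 0.738). Without the libraries numbered 3, 14 of 23 were called lower against WT, beside 1.81% of all genes, and 13 with the replicate number as a block, beside 0.71% of all genes. Against Tet2+/- these counts were 18, beside 3.83% of all genes, and 17, beside 1.67%.

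Summed over the list, the B lineage level was 580 to 680 CPM in WT, 678 to 878 in Tet2+/-, 551 to 659 in Akita and 292 to 412 in the double mutant, and no B lineage marker was at 0 in any group. Over the 8 libraries without the double mutant the mean log2 level of the list correlated with Klhl14 at r = 0.83, with Fam129c at 0.74, with Akap12 at 0.68, with Lynx1 at 0.63 and with Chst3 at 0.48. For the plasmacytoid dendritic cell list r was 0.80 with Klhl14, 0.75 with Akap12 and 0.37, 0.27 and 0.18 with Chst3, Fam129c and Lynx1. For the T and NK cell list r was 0.75 with Klhl14, 0.70 with Akap12, 0.60 with Fam129c, 0.45 with Lynx1 and 0.43 with Chst3. The conventional dendritic cell and the stem and progenitor lists gave 0.80 and 0.70 with Klhl14. They gave 0.48 each with Akap12 and -0.05 to 0.24 with Fam129c, Chst3 and Lynx1. High r was thus not particular to the B lineage and plasmacytoid lists. These are descriptions of 8 points that share their depth and groups. The part of these cell types in the low levels of the 5 genes was not tested.

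Markers of other cell types differed between the libraries too. Of 18 plasmacytoid dendritic cell markers 15 lay below 0 against WT, with a median of -0.95. Against Tet2+/- 3 were called lower, Spib, Klk1 and Pacsin1, beside 0.179% of all genes. With 1 library left out that count went from 0 to 6. It was 0 without any 1 of WT 1 or 2, Tet2+/- 1 or 2 and double mutant 2. Over the whole table those fits called only 0, 0, 1, 1 and 3 genes, in the same order. The list count was 1 without double mutant 1 or 3, beside 8 and 6 genes over the whole table. It was 3 without WT 3 and 6 without Tet2+/- 3, beside 49 and 66 genes. The median of the list lay between -1.48 and -0.75 in these fits. The replicate block called 6 of the 18 lower against WT, among them Siglech and the dendritic cell factor Tcf4, beside 0.71% of all genes. Against Tet2+/- it called 8 lower, beside 1.67%. Without the libraries numbered 3 the counts were 8 against WT, beside 1.81% of all genes, and 9 against Tet2+/-, beside 3.83%. The summed level of the plasmacytoid markers was 947 to 1033 CPM in WT, 671 to 1332 in Tet2+/-, 907 to 913 in Akita and 431 to 548 in the double mutant. All 9 tested conventional dendritic cell markers lay below 0 (median -1.29), as did 9 of 12 T and NK cell markers (-1.05) and all 15 erythroid markers (-0.71), with 0 called against WT in each by edgeR. An unadjusted p under 0.05 was reached by 11 of the 18 plasmacytoid, 7 of the 9 conventional dendritic, 8 of the 12 T and NK and 0 of the 15 erythroid markers, beside 8.79% of all genes, and DESeq2 called 6, 2, 1 and 0 of them lower, beside 0.902% of all genes. Against WT the replicate block called 4 conventional dendritic markers lower, Clec9a, Zbtb46, Cd209a and H2-Aa, and 0 T and NK markers, beside 0.71% of all genes. Without the libraries numbered 3 edgeR called 6 and 4 lower, beside 1.81%, and 0 erythroid markers were called in either fit. All 11 maturing neutrophil markers lay above 0 (median 2.03, 0 called by edgeR, 6 with an unadjusted p under 0.05, all higher, beside 5.12% of all genes, 4 called higher by DESeq2 beside 1.71% of all genes), and their summed level was 2085 to 23324 CPM in WT, 2921 to 28027 in Tet2+/-, 15834 to 30497 in Akita and 45366 to 69921 in the double mutant. The replicate block called 1 of the 11 higher, Mmp9, beside 0.921% of all genes, and without the libraries numbered 3 Lcn2 and Mmp8 were called higher, beside 1.63%, with a median of 1.43. All 6 primary granule markers lay above 0 (median 0.70), as did 6 of 9 stem and progenitor markers (0.29) and 8 of 10 tested stromal and endothelial markers (0.76). Without the libraries numbered 3 the last 2 of these lists turned, with 3 of 9 stem and progenitor markers above 0 (median -0.02, Gata2 called lower) and 3 of 8 tested stromal and endothelial markers above 0 (median -0.07). No marker of these lists was at 0 in any group, apart from the stromal Col3a1 in Akita.

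**Figure D4:**
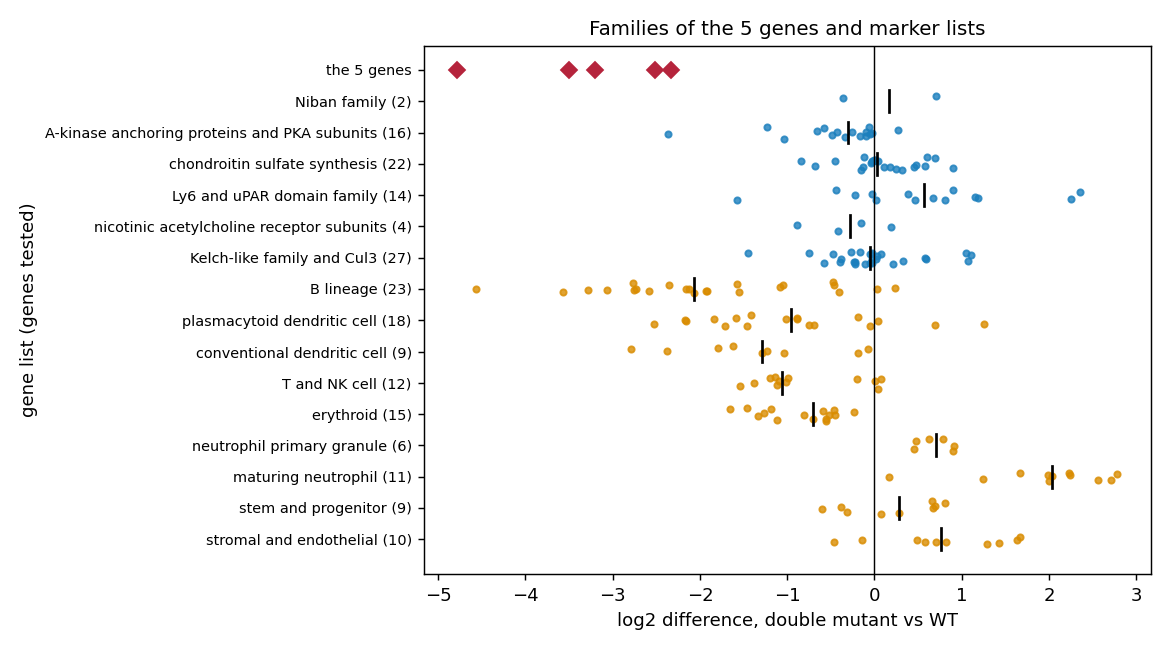
Log2 difference of the double mutant against WT, with the median for each gene list (short black bars), with single tested genes as points, the family lists in blue, the marker lists in orange and the 5 genes as diamonds. The B lineage list has the lowest median, -2.07, and maturing neutrophil markers the highest, 2.03; the protein families of the 5 genes lie between -0.30 and 0.56.

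Relatives and partners of the 5 genes were listed in 6 families. In the double mutant against WT 0 genes of these lists were called of 85 tested (edgeR), 9 had an unadjusted p under 0.05, beside 8.79% of all genes, and DESeq2 called 4, beside 2.61% of all genes, Akap8 and Ly6d lower and Klhl2 and Ly6g higher. The medians of the lists lay from -0.30 to 0.56. Of the Niban relatives, Fam129b had means of 182 CPM (WT) and 141 CPM (double mutant), with a log2 difference of -0.36, and Fam129a 89.1 and 145 CPM (0.71). Among 16 tested A-kinase anchoring proteins and protein kinase A subunits 15 lay below 0 with a median of -0.30; Akap8 gave -0.43 (SE 0.16, edgeR adjusted p = 0.432), Akap13 -0.03 and the regulatory subunit Prkar1a -0.17. Akap2, another anchoring protein, went from 18.2 ± 13.5 CPM (SD, n = 3) to 3.503 ± 1.69 (SD, n = 3), log2 -2.37 (edgeR adjusted p = 0.412). Its WT libraries ranged from 2.72 to 27.4 CPM, and without the libraries numbered 3 it fell by 2.60 on the log2 scale (edgeR adjusted p = 0.00781).

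Chondroitin sulfate synthesis, the pathway of Chst3, had 12 of 22 tested genes above 0 and 10 below, with a median of 0.03. The other carbohydrate sulfotransferase Chst11 gave -0.02 (SE 0.29), the polymerase Chsy1 -0.04 (SE 0.23), the sulfate donor transporter Slc35b2 -0.01 (SE 0.21) and Csgalnact2, which starts chains, 0.47 (SE 0.29). Without the libraries numbered 3 the early linker enzyme B4galt7 rose (log2 0.63, edgeR adjusted p = 0.0321) and the epimerase Dse fell by 0.73 (edgeR adjusted p = 0.0472). That of Chst3 in the same comparison was -3.70.

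Of the Ly6 and uPAR relatives of Lynx1, 10 of 14 tested lay above 0, with a median of 0.56; without the libraries numbered 3 these were 8 of 14 and 0.37. The neutrophil surface gene Cd177 went from 295 ± 214 to 1513 ± 370 CPM (log2 2.36, edgeR adjusted p = 0.403), while Ly6e gave -0.03. Without the libraries numbered 3, Cd177 and the urokinase receptor gene Plaur were called higher, beside 1.63% of all genes, and Ly6d lower. Nicotinic receptor subunits, the known partners of Lynx1 in nerve cells, were scarce: 4 of 16 were tested, their sum was 5.56 to 7.89 CPM over all libraries, and their median was -0.28. The Kelch-like list with Cul3, 27 genes tested, had a median of -0.05; Cul3 gave -0.03, and Klhl6, a Kelch-like gene of lymphocytes, gave -0.03, with means of 114 CPM (WT) and 112 CPM (double mutant).

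The genes on either side of each member were read as a measure that the choice did not use. Of 20 flanking genes tested 0 were called in the double mutant against WT (edgeR, beside 0.0448% of all genes), 4 had an unadjusted p under 0.05, beside 8.79% of all genes, and DESeq2 called 1, Ly6d, beside 2.61%. Of the 20, 11 lay within 0.35 of 0, 4 lay below -1, and their median was -0.16. Pgls overlaps Fam129c on the same strand and had means of 113 CPM (WT) and 112 CPM (double mutant; log2 -0.01, SE 0.23). Colgalt1, 3.1 kb from Fam129c, gave 0.01, and the other genes that flank it were Slc27a1 at -0.28, Unc13a at 0.70 and Tmem221 at -1.33 (SE 0.50, edgeR adjusted p = 0.426). Zbtb2, Mthfd1l and Plekhg1, which flank Akap12, gave 0.03, -0.01 and 0.79 (SE 0.96). Around Chst3, Spock2 gave -1.27, Psap -0.32 and Cdh23 2.03 (edgeR adjusted p = 0.311).

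Ly6d and the antisense RNA 4930426D05Rik were the neighbours lowest against WT. Ly6d, 9.0 kb from Lynx1 and a marker of B cell precursors, was at 49.7, 50.8 and 50.5 CPM in WT, 50.1, 112.6 and 39.2 in Tet2+/-, 51.1 and 48.8 in Akita, and 17.2, 14.4 and 19.1 in the double mutant. All 3 double mutant libraries lay under the other 8, with a log2 difference of -1.57 (SE 0.35, edgeR adjusted p = 0.159). It fell by 1.67 without the libraries numbered 3 (edgeR adjusted p = 0.0419). The RNA 4930426D05Rik, which overlaps Klhl14 on the other strand, had 28, 16 and 21 counts in WT, 24, 45 and 46 in Tet2+/-, 19 and 19 in Akita and 3, 0 and 3 in the double mutant, with a log2 difference of -3.33 (SE 0.72, edgeR adjusted p = 0.151). DESeq2 called this RNA lower, and edgeR did not with the replicate block (adjusted p = 0.0548) or without the libraries numbered 3 (adjusted p = 0.0592). Whether the counting used strand is not given in the sources used here, so reads of Klhl14 and of this antisense RNA cannot be told apart. Further from Klhl14, Garem1 gave -1.02 (SE 1.10), Rnf138 -0.27 and Mapre2 -0.11.

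**Figure D5:**
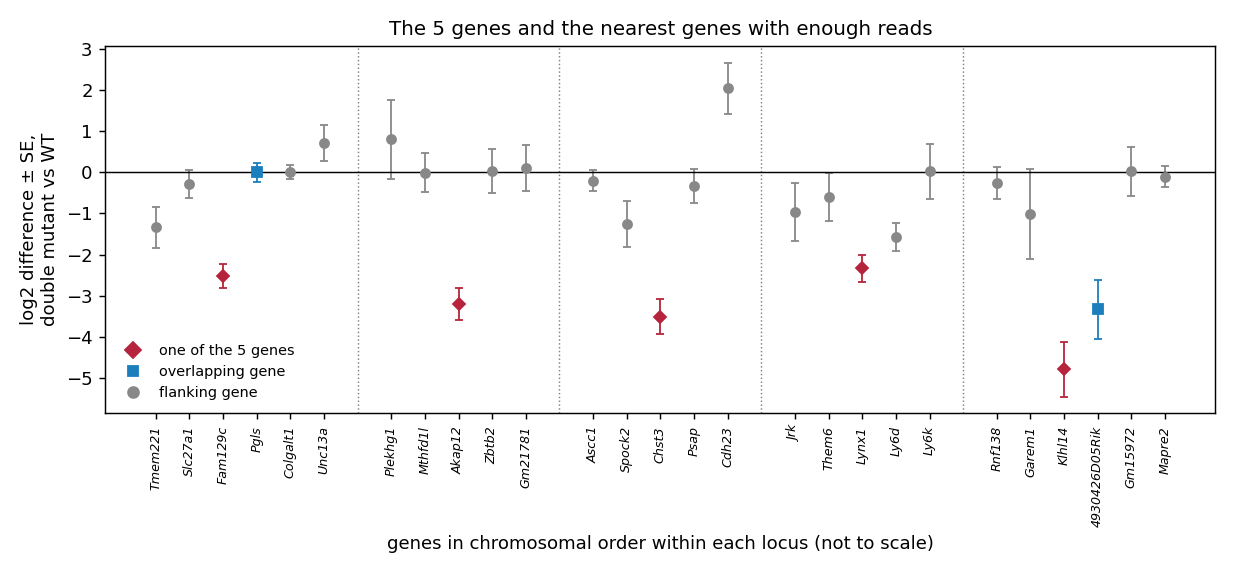
Log2 difference of the double mutant against WT for the 5 genes and for the tested genes around each of them, in chromosomal order and not to scale, with bars of 1 SE. The 5 genes lie from -2.33 to -4.78, while Pgls, Colgalt1, Zbtb2 and Mthfd1l lie within 0.03 of 0 and 4930426D05Rik at -3.33. Garem1, Spock2, Tmem221 and Ly6d lie from -1.02 to -1.57.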

How the data were processed

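The authors deposited 1 table of raw gene counts, whole numbers with no scaling, per the file headers and its values. TopHat2 2.1.1, Trimmomatic 0.32, bcl2fastq and GRCm38 are named in the submitters' processing notes; how the counts were made, with which annotation and whether by strand, is not given in the sources used here. Of 12 labelled samples 11 had a matching column; 1 column matched no label and was not used, and double mutant sample 4 was not analysed here.

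The test was edgeR 4.0.16 under R 4.3.3 (filterByExpr, TMM, 1 fit of 4 groups, glmQLFit with robust=TRUE, Benjamini-Hochberg, adjusted p under 0.05), after a check on simulated data. CPM values use TMM factors, and correlations use log2 CPM with a prior count of 2. Positions and names come from GENCODE M21 (30875 of 31060 identifiers matched without version).

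The members and lists were chosen with earlier results of these data known. Named were the members, up to 4 genes of each list by mean CPM, list genes past the threshold, the 4 genes most like each member, neighbours and Tet2; Cd79a and Pax5 values, Akap2 and the neighbours given in full were picked after their values were seen. One gene that the rule names is not reported here.

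As a check of pairing, deviations from the group mean were correlated between libraries of the same number. The correlation was 0.340 to 0.589 for WT with the double mutant, 0.485 to 0.791 for WT with Tet2+/- and 0.318 to 0.533 for Tet2+/- with the double mutant. Deviations within a group sum to 0, so a shift shared by the libraries numbered 3 can also raise the values of numbers 1 and 2. These values therefore cannot show that equal numbers are pairs. Akita, with no library numbered 3, gave 0.0661 and -0.351 with WT for numbers 1 and 2. It gave 0.264 and -0.232 with Tet2+/- and -0.0189 and -0.321 with the double mutant. The replicate block was run over all 4 groups. Alternatives were RLE factors, DESeq2 1.42.0, no low count filter, the replicate block, no libraries numbered 3, and each library left out.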

Additional observations from a re-analysis of the deposited data

How the results depend on the processing

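All 5 genes stayed uncalled in the comparisons without the double mutant under every alternative run (smallest edgeR or DESeq2 adjusted p 0.444), and kept their direction in the comparisons with it. That direction was fixed by the choice of the genes, as every double mutant library lay under every other library. In the comparisons without the double mutant, signs turned only for differences near 0. Without the libraries numbered 3, Chst3 gave -0.0075 in Akita against WT and -0.0204 in Akita against Tet2+/-. With 1 library left out, ranges that crossed 0 were -0.26 to 0.16 for Akap12 in Akita against Tet2+/-, -0.0355 to 0.25, -0.11 to 0.29 and -0.19 to 0.21 for Chst3 in Tet2+/- against WT, Akita against WT and Akita against Tet2+/-, -0.10 to 0.12, -0.32 to 0.13 and -0.35 to 0.10 for Lynx1 in the same order, and -0.49 to 0.11 for Klhl14 in Akita against WT. Without double mutant library 1, Klhl14 was at -5.58, -5.88 and -5.43 against WT, Tet2+/- and Akita. A group left with 1 library was assumed to vary like the others.

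Counts of called genes over the whole table moved far more. For Tet2+/- against WT, Akita against Tet2+/-, and the double mutant against WT, Tet2+/- and Akita, edgeR called 4, 3, 7, 41 and 6 genes. DESeq2 called 45, 31, 408, 538 and 189. Without the libraries numbered 3 the counts were 22, 27, 519, 1163 and 436. With the replicate block they were 8, 4, 255, 703 and 18. With no low count filter they were 6, 5, 52, 86 and 20. With 1 library left out they ranged from 1 to 7, 0 to 6, 1 to 49, 0 to 66 and 0 to 11. For Akita against WT 0 genes were called under each of these. Among the lists, the block called 13 B lineage, 6 plasmacytoid and 4 conventional dendritic genes lower against WT in place of 0 each, beside 0.71% of all genes. The cause was not tested. Depth limits Klhl14, which rests on 3 counts in the double mutant, and Lynx1, with 9 to 21 counts there.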
